A study of Mus musculus with 36 samples.

Results

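Slc13a2 and 6 other genes that encode nutrient transporters of the absorptive intestinal cell were followed in cultured mouse jejunal organoids. Slc13a2 was chosen by its fall in medium of senescent fibroblasts, in the comparison of SCM + IgG with complete media + IgG. Slc5a1, Slc15a1, Slc2a2, Slc2a5, Slc7a9 and Slc6a19 were chosen by name as carriers of sugars, peptides and amino acids, with earlier results of these data known. These 7 genes are 7 of the 52636 genes listed in each library. All 7 passed the filter on low counts that left 15497 genes, and all 7 exceeded 0.5 mean CPM (counts scaled to a library of standard size), the level under which a gene was to be reported as not detected. Because libraries of SCM + IgG and complete media + IgG chose Slc13a2, its values in any comparison with those libraries are given as a description with no test.

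Enterocytes absorb nutrients through a brush border, a field of microvilli on the side of the cell that faces the gut lumen. Most apical carriers are secondary active transporters, which use the sodium or proton gradient across this membrane to draw a solute into the cell, and facilitative carriers then let sugars and amino acids pass to the blood side. Slc13a2 (NaDC1) carries citrate, succinate and other intermediates of the citric acid cycle together with sodium. Slc5a1 (SGLT1) couples glucose and galactose to sodium, Slc2a5 (GLUT5) is the fructose carrier, Slc2a2 (GLUT2) is a facilitative carrier of glucose and fructose that serves mainly on the basolateral side, Slc15a1 (PEPT1) takes up small peptides with protons, Slc6a19 takes up neutral amino acids with sodium, and Slc7a9 exchanges cystine and basic amino acids as a complex with the protein of Slc3a1. In the intestine these genes are known as products of differentiated villus cells.

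The organoids came from jejunal crypts of C57BL/6 mice, with 6 mice named as their origin. The ages stated for mice of this strain are not tied to the organoids in the sources used here. The organoids were grown for 2 days in complete media (IntestiCult), alone or with Wnt5a, a ligand of noncanonical Wnt signaling, or in conditioned medium. The conditioned medium was serum-free medium from quiescent (QCM) or senescent (SCM) mouse embryonic fibroblasts, concentrated and mixed with IntestiCult. Each culture also received control IgG or an antibody against Ptk7, a Wnt co-receptor, IgG being combined with all 4 media and anti-Ptk7 with SCM and with Wnt5a, and each combination has 6 libraries. No library of complete media or QCM with anti-Ptk7 was analysed here, so the effect of the antibody without SCM or Wnt5a is not measured, and organoids are isolated epithelium without blood supply or luminal food.

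The 36 libraries held 9581589 to 21029769 counts. The labels do not state which replicate came from which mouse, and p-values therefore measure the spread between these libraries. The labelled cell type could be checked by its markers. All 6 markers of epithelium and all 14 of enterocytes passed the filter on low counts, whereas 1 of 6 fibroblast markers and 0 of 5 immune markers did, and Dcn, Col3a1 and Adgre1 had 0 counts in all libraries. In RNA of whole cultures, fewer cells of a type and less RNA per cell cannot be told apart.

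The windows of 250 bases before the annotated starts of the 7 genes (RefSeq, GRCm38.p6) were searched on both strands for the core letters of 4 motifs. RefSeq starts differ from those of the gene spans given further on (GENCODE) for some genes. The window of Slc6a19, chr13:73692637-73692886 (minus strand), lies inside its span, far from the start at the end of that span. Both windows of Slc7a9 also lie inside its span, and that of Slc2a5, chr4:150119094-150119343 (plus strand), runs past its start. The counts out of 7 thus include genes whose window is not before the GENCODE start. They are counts of genes, whereas the shares over the genome are of windows. GTTAA, the core of the binding site of the enterocyte and liver factor HNF1, lay in the windows of Slc13a2, Slc15a1 and Slc2a2, which is 3 of 7, against 7116 of 32851 such windows in the genome (21.7%). These 3 windows are shown because they hold the same letters and because their genes differed in how they moved, as given further on; GTTAA on the strand shown and, in Slc13a2, the base after it where the match of the other strand overlaps, are in capitals. The sequences run 5′ to 3′ toward the start and cover chr11:78422235-78422484 (minus strand) for Slc13a2, chr14:121505255-121505504 (minus strand) for Slc15a1 and chr3:28697653-28697902 (plus strand) for Slc2a2.
Slc13a2: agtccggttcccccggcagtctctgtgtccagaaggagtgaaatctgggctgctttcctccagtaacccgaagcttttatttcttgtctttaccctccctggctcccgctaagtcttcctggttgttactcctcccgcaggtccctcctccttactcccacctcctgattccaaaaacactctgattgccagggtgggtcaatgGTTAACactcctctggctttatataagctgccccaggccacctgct
Slc15a1: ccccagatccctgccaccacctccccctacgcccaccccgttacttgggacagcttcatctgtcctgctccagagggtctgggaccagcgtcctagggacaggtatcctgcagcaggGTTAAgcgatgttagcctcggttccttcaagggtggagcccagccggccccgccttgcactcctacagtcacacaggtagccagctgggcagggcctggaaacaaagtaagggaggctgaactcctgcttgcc
Slc2a2: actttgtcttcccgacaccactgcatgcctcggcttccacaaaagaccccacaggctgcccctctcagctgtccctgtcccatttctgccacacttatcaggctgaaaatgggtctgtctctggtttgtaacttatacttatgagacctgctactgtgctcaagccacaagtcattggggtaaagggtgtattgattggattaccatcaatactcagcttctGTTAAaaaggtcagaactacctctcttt

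The letters began 46 bases before the start in Slc13a2, 133 in Slc15a1 and 28 in Slc2a2. CAAAGT, the core of the site of HNF4, was in the windows of Slc15a1 and Slc2a2 (2 of 7, against 12.6% of all windows), the TATA box letters TATAAA were in that of Slc13a2 on the other strand, from 29 to 24 bases before the start (1 of 7, against 12.4%), and GGAATG, the core of the TEAD site, was in 0 of 7 against 12.6%. Over part of the bases that match TATAAA, the strand shown reads tatataa, which was not among the letters searched. A match of letters in a window is a description and not a measured site.

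The 7 genes covered a wide range of abundance. Per kilobase of coding sequence, the mean level in complete media + IgG was 267 CPM for Slc5a1, 25.3 for Slc2a2, 23.7 for Slc2a5, 20.2 for Slc7a9, 19.3 for Slc6a19, 7.74 for Slc13a2 and 2.75 for Slc15a1. In this order Slc2a2, Slc2a5, Slc7a9 and Slc6a19 each differed from its neighbour by less than the larger SD of the pair, whereas Slc5a1, Slc13a2 and Slc15a1 stood apart. Genes without a coding sequence, such as Slc13a2os (antisense to Slc13a2), also hold counts, so reads outside coding sequences may have been counted. Exons cover 2412 bases in Slc13a2 and 5755 in Slc2a2, and the order and spacing below Slc5a1 depend on the length used. Slc5a1 was one of the abundant transcripts of the cultures, with a mean CPM above that of 98.2% of the genes tested, and Slc15a1 was above 25.6%. The peptide carrier was thus present at only 12 to 105 counts per library, and Slc13a2 at 5 to 264, so that their values carry more counting error than those of the sugar carriers.

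**Figure D1:**
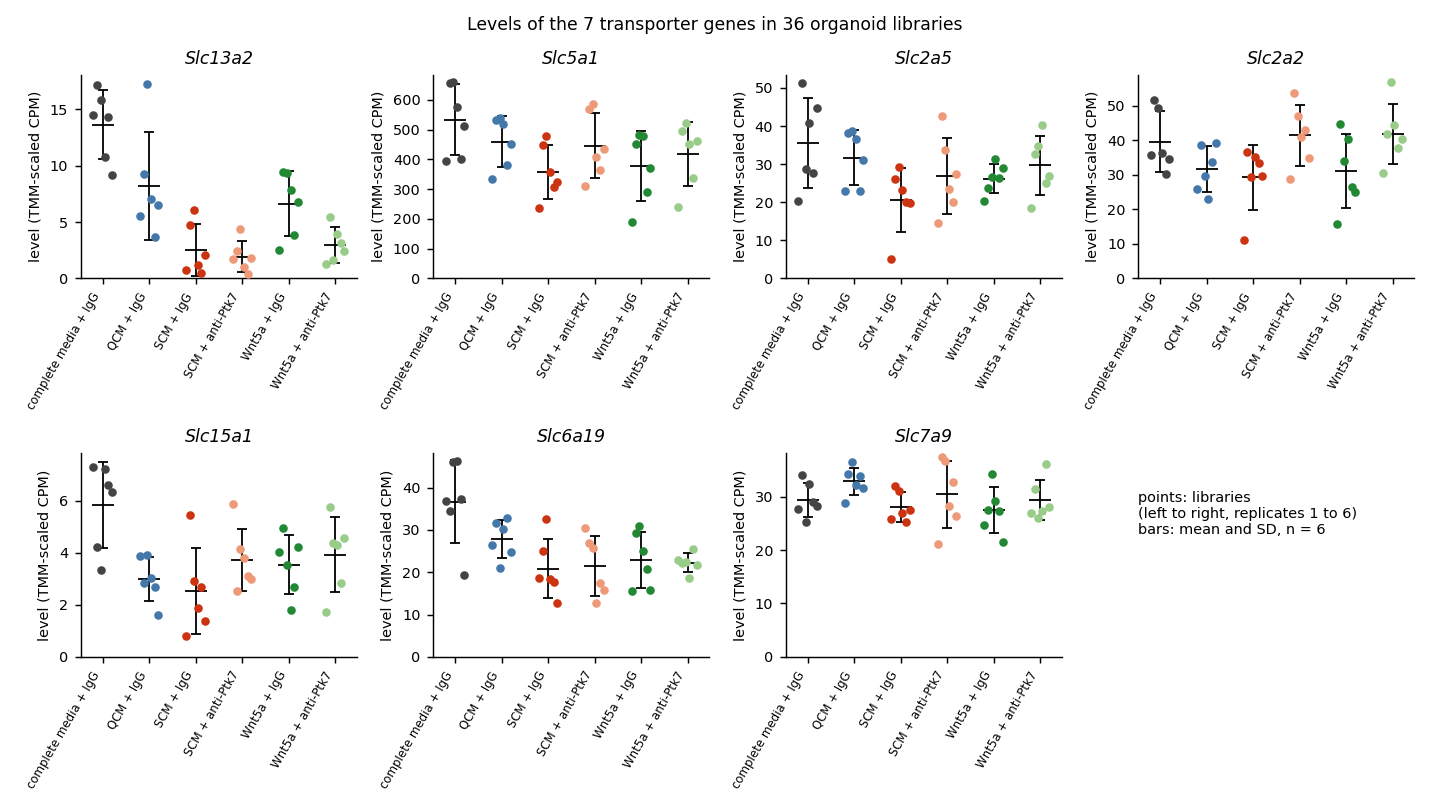
Levels of the 7 transporter genes in TMM-scaled CPM (vertical axes start at 0) in 6 conditions, with each point a library and bars the mean and SD of 6 libraries. Slc13a2 lies between 9.16 and 17.1 CPM in complete media + IgG and between 0.498 and 6.06 in SCM + IgG, while Slc7a9 stays between 21.2 and 37.5 in all 36 libraries.

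Slc13a2 (ENSMUSG00000001095, chr11:78397087-78422217, minus strand, GRCm38) had the widest range of condition means among the 7 genes, with the highest 6.99 times the lowest. In complete media + IgG its lowest, median and highest levels were 9.16, 14.4 and 17.1 CPM. In SCM + IgG they were 0.498, 1.64 and 6.06 CPM. No SCM + IgG library reached the lowest library of complete media + IgG, and replicates 2 and 3 were the highest of the SCM + IgG libraries, at 4.70 and 6.06 CPM. The fitted difference was −2.38 ± 0.472 on the log2 scale (SE), or 5.20-fold lower, which is the value that chose the gene. Among the 91 genes called lower in that comparison that had a mean log2 CPM over 1 and no overlap of libraries, only Ntn4 had a larger fall (−2.90), and Usp2 (−1.84) and Gm12888 (−1.77) came next. The rule set no cutoff on the size of the fall.

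The other conditions lay between or below these levels. QCM + IgG ranged from 3.70 to 17.2 CPM around a median of 6.77, and its replicate 3, at 17.2 CPM, was above every library of complete media + IgG whereas 4 of 6 were below all of them. Wnt5a + IgG ranged from 2.51 to 9.38 CPM around a median of 7.33. The fitted differences from complete media + IgG were −0.73 ± 0.44 for QCM + IgG and −1.03 ± 0.444 for Wnt5a + IgG (log2, SE), and SCM + IgG was lower than QCM + IgG by a fitted −1.65 ± 0.466. SCM + anti-Ptk7 ranged from 0.419 to 4.34 CPM around a median of 1.75 and thus overlapped SCM + IgG, with a fitted difference of −0.41 ± 0.488 that turned to 0.07 without SCM + IgG replicate 3. The order of the means was complete media + IgG, QCM + IgG, Wnt5a + IgG, Wnt5a + anti-Ptk7, SCM + IgG and SCM + anti-Ptk7, and the last 3 overlapped in range.

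4 comparisons contain no library that chose Slc13a2, and in these it was tested with the other 6 genes by edgeR's quasi-likelihood test, with Benjamini-Hochberg adjustment over all 15497 genes. A gene counts as called here where the adjusted p is under 0.05 and the levels differ by more than 1.5-fold. Slc13a2 was lower in SCM + anti-Ptk7 than in QCM + IgG by 2.06 ± 0.479 on the log2 scale, a fitted −2.06 with a 95% interval from −3.04 to −1.08 (adjusted p = 0.00514). That is 4.17-fold, and 5 of 6 SCM + anti-Ptk7 libraries lay below every QCM + IgG library. The conditions differ in medium and in antibody, whose parts cannot be told apart in this comparison. It was the single call among the 7 genes in that comparison, in which 3.05% of all genes tested were called in either direction. The other 6 differed by −0.37 to 0.38, with adjusted p of 0.287 or more. Without QCM + IgG replicate 3, the high library, Slc13a2 differed by −1.69 (adjusted p = 0.0279).

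Between Wnt5a + IgG and QCM + IgG, Slc13a2 differed by less than its error, at −0.30 ± 0.443 (0.06 without QCM + IgG replicate 3) with a 95% interval from −1.20 to 0.60 (adjusted p = 0.685). None of the 7 genes was called between them by edgeR, where 9.34% of all genes tested were called and 1 of the 7, Slc7a9, had an unadjusted p under 0.05. Between Wnt5a + anti-Ptk7 and SCM + anti-Ptk7, Slc13a2 differed by 0.60 ± 0.487 (95% interval −0.39 to 1.60, adjusted p = 0.511), and by 0.35 to 1.03 with a library left out. In this comparison 0 of 7 genes were called by edgeR, with 0 at an unadjusted p under 0.05, against 1.53% of all genes called. With voom and limma and with DESeq2 the count was also 0 of 7 in both comparisons.

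The annotation places an antisense gene, Slc13a2os, over Slc13a2. The library kit marks no strand, and reads from the shared stretch cannot be assigned to one of them. Slc13a2os held 812 counts over all libraries against 2922 of Slc13a2. Its mean level was 4.11 CPM in complete media + IgG, 2.07 in QCM + IgG, 1.67 in Wnt5a + IgG, 0.982 in Wnt5a + anti-Ptk7, 0.796 in SCM + IgG and 0.373 in SCM + anti-Ptk7, the same order as Slc13a2. Slc6a19os, antisense to Slc6a19, held 168 counts against 12401.

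Among the 6 genes that the fall did not choose, 3 were called lower in SCM + IgG than in complete media + IgG, namely Slc15a1, Slc6a19 and Slc2a5, and none was called higher. In this comparison 6.08% of the genes tested were called in either direction and 1.12% were called lower. Voom with limma and DESeq2 also called 3 of the 6. Between SCM + IgG and QCM + IgG, edgeR without a block called none of these 3. The adjusted p there was 0.77 for Slc15a1, 0.334 for Slc6a19 and 0.222 for Slc2a5.

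The peptide carrier Slc15a1 (ENSMUSG00000025557, chr14:121459621-121505252, minus strand) had lowest, median and highest levels of 3.34, 6.49 and 7.30 CPM in complete media + IgG, and of 0.781, 2.28 and 5.47 CPM in SCM + IgG. 5 of the 6 SCM + IgG libraries lay below every library of complete media + IgG, and replicate 2, at 5.47 CPM, did not. The difference was −1.21 ± 0.33 (log2, SE, adjusted p = 0.0135), or 2.31-fold lower. QCM + IgG libraries, at 1.60 to 3.91 CPM, were also low for this gene, with a difference from complete media + IgG of −0.97 ± 0.326 that was not called (adjusted p = 0.179). Between SCM + IgG and QCM + IgG the gene differed by −0.24 ± 0.332 (adjusted p = 0.77), and by −0.63 to −0.04 with a library left out. In Wnt5a + IgG it ranged from 1.79 to 4.95 CPM, a difference from complete media + IgG of −0.72 that edgeR did not call (adjusted p = 0.11) and voom with limma did (−0.90, adjusted p = 0.024).

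Slc6a19 (ENSMUSG00000021565, chr13:73679745-73704865, minus strand), the carrier of neutral amino acids, ranged from 19.4 to 46.3 CPM around a median of 37.0 in complete media + IgG. It ranged from 12.8 to 32.5 CPM around 18.5 in SCM + IgG and from 15.6 CPM upward around 22.9 in Wnt5a + IgG, with none above the highest SCM + IgG library. The ranges overlap through complete media + IgG replicate 6, at 19.4 CPM against 34.4 CPM in the next library of its condition. Slc6a19 was lower by a log2 difference of −0.81 ± 0.214 in SCM + IgG (adjusted p = 0.0109) and of −0.68 ± 0.214 in Wnt5a + IgG (adjusted p = 0.0195). It was the single call of the 6 genes in Wnt5a + IgG by edgeR and by DESeq2, where voom with limma called 2, Slc15a1 and Slc6a19. In that comparison 10.2% of all genes were called in either direction and 1.88% were called lower. Slc6a19 was not called without Wnt5a + IgG replicate 1 (−0.60, adjusted p = 0.0625). Cltrn, which encodes a partner of this carrier in the kidney, had 0.201 mean CPM and was under the level of detection.

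The fructose carrier Slc2a5 (ENSMUSG00000028976, chr4:150119283-150144169, plus strand) ranged from 20.3 to 51.2 CPM around a median of 34.8 in complete media + IgG and from 5.21 to 29.4 CPM around 21.7 in SCM + IgG. The groups overlapped, with 3 of 6 SCM + IgG libraries below all libraries of complete media + IgG. The difference was −0.79 ± 0.268 with an adjusted p of 0.0498, and this call was lost on leaving out any of 8 of the 12 libraries compared, at adjusted p up to 0.119. Without SCM + IgG replicate 1, which at 5.21 CPM was the lowest, it was −0.59 (adjusted p = 0.113). In Wnt5a + IgG the libraries lay closer together, at 20.3 to 31.3 CPM.

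The sodium-glucose carrier Slc5a1 (ENSMUSG00000011034, chr5:33104219-33162870, plus strand) had lowest, median and highest levels of 395, 543 and 662 CPM in complete media + IgG, of 238, 341 and 479 CPM in SCM + IgG and of 190.0, 412 and 483 CPM in Wnt5a + IgG. All ranges overlapped. Its differences from complete media + IgG were −0.57 ± 0.205 in SCM + IgG (adjusted p = 0.0633) and −0.50 ± 0.205 in Wnt5a + IgG (adjusted p = 0.0797), or 1.49-fold and 1.41-fold lower. Neither the adjusted p nor the fold change reached the call in either. Within each replicate number, both conditions lay below complete media + IgG. With that number as a block in edgeR, the adjusted p was 7.66e-07 and 2.46e-06, and the fold changes stayed under 1.5. Without the block, Slc5a1 was called in SCM + IgG on leaving out complete media + IgG replicate 1 or 5 or SCM + IgG replicate 2 or 3, at adjusted p of 0.0357 to 0.0449, and in Wnt5a + IgG on leaving out Wnt5a + IgG replicate 4 (−0.59, adjusted p = 0.0452). For Slc2a2 (ENSMUSG00000027690, chr3:28697903-28731359, plus strand), which ranged from 30.2 to 51.8 CPM in complete media + IgG and from 11.3 to 36.7 CPM in SCM + IgG, the difference in SCM + IgG was −0.44 ± 0.221 (adjusted p = 0.215). Without SCM + IgG replicate 1, the lowest library, it was −0.28.

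Slc7a9 (ENSMUSG00000030492, chr7:35448796-35466036, plus strand) was the steadiest of the 7. Its condition means lay between 27.5 ± 4.33 CPM in Wnt5a + IgG and 32.9 ± 2.60 CPM in QCM + IgG (SD, n = 6). In SCM + IgG it differed from complete media + IgG by −0.06 ± 0.118, with a 95% interval from −0.31 to 0.18 (adjusted p = 0.789), an interval that does not reach a fold change of 1.5. Slc3a1, the heavy subunit that forms the complex with Slc7a9, differed by −0.40 ± 0.141 in SCM + IgG (adjusted p = 0.0615) and by −0.39 ± 0.141 in Wnt5a + IgG, where its adjusted p of 0.0435 passed but its fold change did not.

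**Figure D2:**
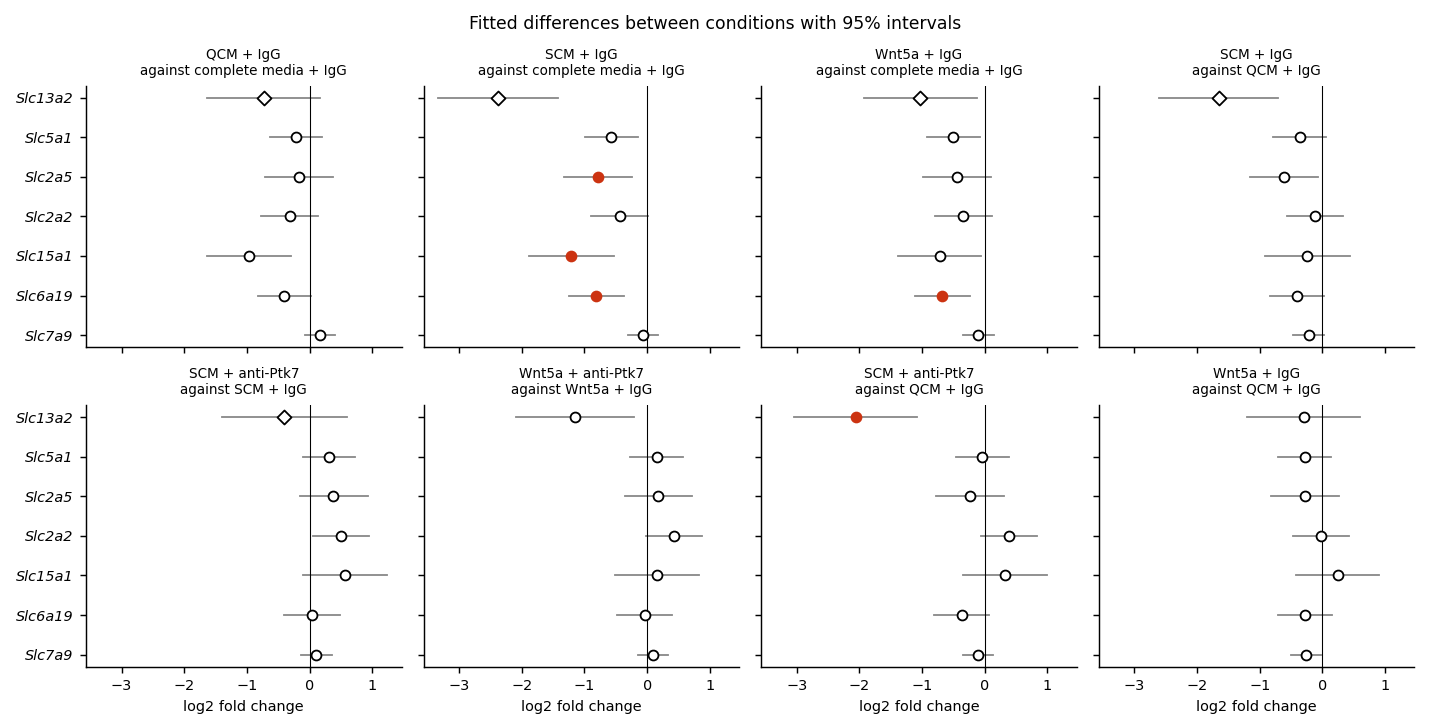
Fitted log2 fold changes of the 7 genes (horizontal axes) in 8 comparisons, with 95% intervals as lines, filled red points for genes called, open points for genes tested and not called, and open diamonds for Slc13a2 where the libraries that chose it were part of the comparison. In SCM + IgG against complete media + IgG, 3 of 6 tested genes are called, and Slc13a2 is the single call in SCM + anti-Ptk7 against QCM + IgG.

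QCM + IgG against complete media + IgG gave 0 of 6 calls by edgeR, with 1 of 6 (Slc15a1) at an unadjusted p under 0.05, in a comparison in which 0.374% of all genes were called. SCM + IgG against QCM + IgG also gave 0 of 6, with Slc2a5 at an unadjusted p under 0.05 (−0.62, adjusted p = 0.222) and 0.903% of all genes called. With the replicate number as a block, edgeR called Slc2a5 there (−0.69, adjusted p = 0.0121). Wnt5a + IgG against SCM + IgG gave 0 of 6, with 0 at an unadjusted p under 0.05 and 0.69% of all genes called, and Slc13a2 was higher in Wnt5a + IgG by a fitted 1.35. Voom with limma and DESeq2 gave 0 of 6 in each of these 3 comparisons.

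Addition of anti-Ptk7 to SCM gave 0 of 6 calls by edgeR, with Slc2a2 alone at an unadjusted p under 0.05, and 1.23% of all genes were called. The 6 fitted differences were all above 0, from 0.04 for Slc6a19, which turned below 0 without some libraries, to 0.56 for Slc15a1, which ran from 0.37 to 0.96 with a library left out. Slc2a2 ranged from 11.3 to 36.7 CPM in SCM + IgG and from 28.9 to 53.8 CPM with the antibody, a difference of 0.50 ± 0.22 (adjusted p = 0.229). Without SCM + IgG replicate 1, at 11.3 CPM the lowest, it was 0.33.

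With Wnt5a, the antibody gave 0 of 7 calls by edgeR, where 0.884% of all genes were called, and the gene with an unadjusted p under 0.05 was Slc13a2. Its lowest, median and highest levels were 2.51, 7.33 and 9.38 CPM in Wnt5a + IgG and 1.26, 2.81 and 5.46 CPM in Wnt5a + anti-Ptk7. All 6 libraries with the antibody lay below the median of Wnt5a + IgG, and 3 lay below all its libraries. The difference was −1.15 ± 0.462 with a 95% interval from −2.10 to −0.21, and it did not pass the adjustment over all genes (adjusted p = 0.20). The other 6 differed by −0.04 for Slc6a19 to 0.43 for Slc2a2. Voom with limma and DESeq2 also called none of these transporter genes for either use of the antibody.

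The test of the difference between both antibody effects gave 0 of 6 calls by edgeR, each at an adjusted p of 0.999. It called 0% of the 15497 genes, 602 had an unadjusted p under 0.05, and voom with limma and DESeq2 called 0 genes as well.

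The ratio of Slc13a2 to each other transporter gene within a library was then compared, in the 4 comparisons free of the libraries that chose Slc13a2. A scaling factor of a library cancels in this ratio except through the prior count of 2 in log2 CPM, which moves low values most. It was compared by exact two-sided permutation tests of 6 against 6 libraries, adjusted over all 24, for which the smallest possible p is 0.00216. In SCM + anti-Ptk7 against QCM + IgG all 6 log2 ratios were lower, by −1.68 to −2.48, and all 6 passed the exact tests at adjusted p of 0.00866 to 0.0195. In Wnt5a + anti-Ptk7 against Wnt5a + IgG all 6 were lower, by −1.14 against Slc6a19 to −1.62 against Slc2a2, and passed the exact tests at adjusted p of 0.00866 to 0.039. The other 6 genes differed by −0.04 to 0.43 there, so that these ratios largely carry the Slc13a2 difference given above, which was not called over all genes. In Wnt5a + IgG against QCM + IgG none of the 6 passed, at 0.05 to −0.50 and adjusted p of 0.405 or more in the exact tests. In Wnt5a + anti-Ptk7 against SCM + anti-Ptk7 none passed either, at 0.51 to 0.80 and adjusted p of 0.184 or more in the exact tests. The 6 ratios of a comparison share the Slc13a2 values and are not independent, and these tests were chosen after the levels had been seen.

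**Figure D3:**
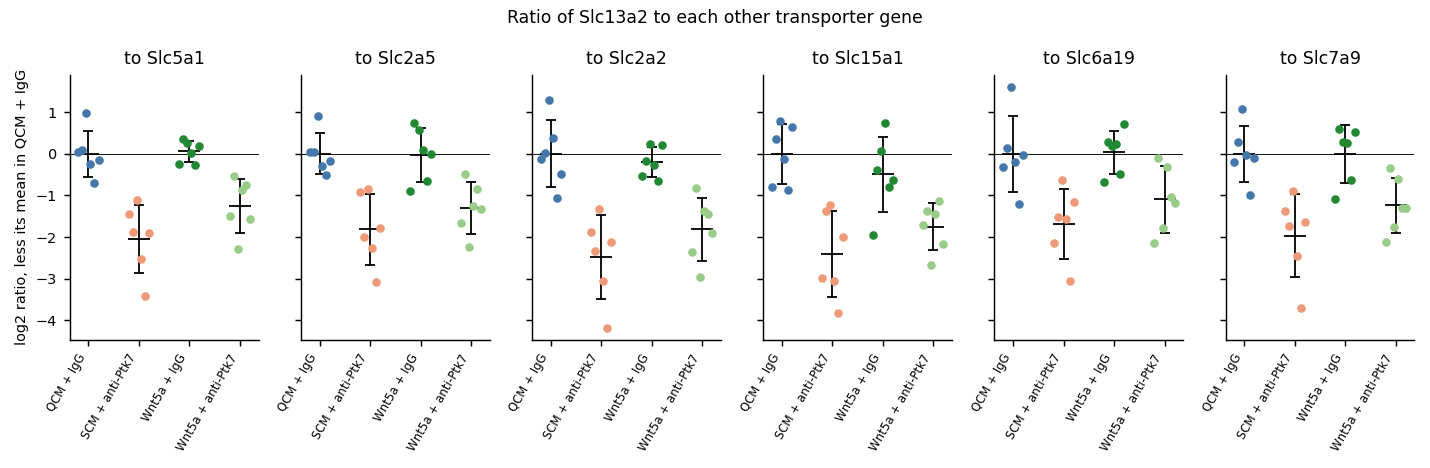
Log2 ratio of Slc13a2 to each of the other 6 genes within a library (vertical axis, less its mean in QCM + IgG), with each point a library and bars the mean and SD of 6 libraries. SCM + anti-Ptk7 and Wnt5a + anti-Ptk7 lie below QCM + IgG and Wnt5a + IgG on average, by −1.68 to −2.48 for SCM + anti-Ptk7 against QCM + IgG. These last conditions differ in medium and in antibody, and SCM + IgG, whose libraries chose Slc13a2, is not shown.

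Of 14 enterocyte markers, 6 were called higher and 1 lower in SCM + IgG than in complete media + IgG, where 4.96% of all genes were called higher. Among the 6 were alkaline phosphatase Alpi (1.26, adjusted p = 2.12e-06), the apolipoprotein Apoa4 (1.15, adjusted p = 1.26e-05) and the keratin Krt20 (1.84, adjusted p = 0.00146). The marker called lower was Anpep, the brush border aminopeptidase N (−1.46 ± 0.25, adjusted p = 0.000124). The median of the 14 was 0.25, against 0.01 for all genes tested. Their summed level was 5456 to 6860 CPM in complete media + IgG, 6752 to 8318 CPM in SCM + IgG and 6562 to 7773 CPM in Wnt5a + IgG, and none of the 14 was at 0 counts in all libraries. In QCM + IgG 3 of the 14 were called higher than in complete media + IgG, Alpi (0.86), Fabp1 (0.76) and Apoa4 (0.74), against 0.355% of all genes, and the summed level was 6409 to 7628 CPM, which overlaps SCM + IgG. Between SCM + IgG and QCM + IgG edgeR called 0 of the 14, with 7 at an unadjusted p under 0.05 and a median of 0.11. In Wnt5a + IgG 5 markers were called higher, against 8.29% of all genes, and 1, again Anpep, lower (−0.91 ± 0.246, adjusted p = 0.00663). With the antibody, Alpi was called lower in SCM (−0.59, adjusted p = 0.0403) and with Wnt5a (−0.72, adjusted p = 0.0104), and no other enterocyte marker was called. In these comparisons 0.645% and 0.432% of all genes were called lower.

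Markers of other cells moved in part with the same conditions. Over all genes tested, 4.96% were called higher and 1.12% lower in SCM + IgG, and 8.29% higher and 1.88% lower in Wnt5a + IgG. Of 6 epithelium markers, 3 were called higher in SCM + IgG than in complete media + IgG (median 0.70), the keratins Krt8 (1.08), Krt18 (1.00) and Krt19 (0.95), and 4 in Wnt5a + IgG (median 0.93). Their summed level was 8973 to 12160 CPM in complete media + IgG, from 13071 CPM upward in SCM + IgG and from 15146 CPM upward in Wnt5a + IgG, with no overlap between either condition and complete media + IgG. Of 4 tuft cell markers tested, 0 were called in SCM + IgG by edgeR, with 1 at an unadjusted p under 0.05, and 3 were called higher in Wnt5a + IgG (median 1.54), where their summed level was 20.6 to 36.1 CPM against 7.40 to 13.1 CPM in complete media + IgG. Of 6 Paneth cell markers, Mmp7 and Ang4 were called higher in both conditions, with medians of the list of 0.21 in SCM + IgG and −0.20 in Wnt5a + IgG. Of 5 stem cell markers, 1 was called lower in both, Smoc2 (−0.77 in SCM + IgG and −0.67 in Wnt5a + IgG), and the medians were −0.16 and −0.27. None of 6 goblet, 6 enteroendocrine and 6 proliferation markers was called in either condition by edgeR, with 1 to 3 of each list at an unadjusted p under 0.05 and list medians of −0.17 to 0.11. With anti-Ptk7 in SCM, 2 of 6 enteroendocrine markers were called lower (median −0.31), where 0.645% of all genes were. With anti-Ptk7 and Wnt5a, 1 of 6 enteroendocrine (median −0.25) and 1 of 6 Paneth cell markers (median −0.43) were called lower, where 0.432% of all genes were. No other marker of these lists was called for either use of the antibody.

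In SCM + anti-Ptk7 against QCM + IgG, the comparison in which Slc13a2 was called, 1.92% of all genes were called higher and 1.14% lower. Of 6 enteroendocrine markers 3 were called lower there, the hormone genes Cck (−0.91), Sct (−0.92) and Gcg (−0.70), with a list median of −0.48, and their summed level was 422 to 545 CPM against 502 to 748 CPM in QCM + IgG. Of the 14 enterocyte markers Fabp1 (0.71) and Apob (0.85) were called higher, with a median of 0.11. Of the Paneth cell markers Ang4 (0.74) was called higher and Lyz1 (−0.60) lower, and of the stem cell markers Ascl2 (0.59) was called higher. The epithelium, goblet, tuft and proliferation markers had no call by edgeR, with 1 or 2 of each list at an unadjusted p under 0.05. The part of all these markers in the levels of the transporters was not tested.

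A list of 33 other apical carriers and their partners, 28 of which could be tested, was split in direction. In SCM + IgG against complete media + IgG, 3 were called higher, 4 lower and 21 neither, with a median of −0.06 against 0.01 for all genes, in the comparison with 4.96% of all genes called higher and 1.12% lower. The phosphate carrier Slc34a2 rose from 12.6 ± 2.64 to 43.2 ± 5.91 CPM (1.78 ± 0.161, adjusted p = 1.13e-09), and the folate carrier Slc46a1 rose from 19.6 to 43.4 CPM (1.14, adjusted p = 1.13e-05). The nucleoside carrier Slc28a2 rose from 0.892 ± 0.742 to 5.45 ± 2.29 CPM (adjusted p = 0.000266). In the other direction, the chloride exchanger Slc26a3 fell from 70.4 ± 12.6 to 41.3 ± 10.5 CPM (−0.77 ± 0.193, adjusted p = 0.00676). Slc5a12, a sodium-coupled carrier of lactate and other monocarboxylates, fell from 3.06 ± 2.40 CPM to 0.0661 ± 0.0917 CPM (adjusted p = 0.000232). It had 0 to 4 counts in the SCM + IgG libraries, so no fold change is given. Slc5a11 (5.98 to 1.17 CPM, adjusted p = 0.033) was also called lower.

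In Wnt5a + IgG against complete media + IgG, 5 of the 28 were called higher and 1 lower, with a median of 0.03 against 0.01, where 8.29% of all genes were called higher and 1.88% lower. Slc34a2 (2.03, adjusted p = 4.92e-11), Slc46a1 (1.02, adjusted p = 3.14e-05) and Slc28a2 (adjusted p = 0.000181) were among those called higher, as were the proline and imino acid carrier Slc6a20a (1.19, adjusted p = 0.000556) and the phosphate carrier Slc20a1 (0.82, adjusted p = 0.00178). In QCM + IgG, Slc34a2 (1.12, adjusted p = 7.54e-05) and Slc46a1 (0.90, adjusted p = 0.00286) were called higher and none lower, where 0.355% of all genes were called higher. With anti-Ptk7 in SCM, 0 were called higher and 3 lower (0.645% of all genes were called lower), which were Slc6a20a (−0.98, adjusted p = 0.0261), the bile acid carrier Slc10a2 (−1.41, adjusted p = 0.0257) and Slc5a4b, a relative of Slc5a1 (−1.22, adjusted p = 0.0382). With anti-Ptk7 and Wnt5a, Slc5a4b (−1.48, adjusted p = 0.00945) and Slc6a20a (−0.98, adjusted p = 0.02) were called lower, as were 0.432% of all genes. Slc5a4b had 17.4 ± 6.37 CPM in Wnt5a + IgG and 6.21 ± 3.11 CPM in Wnt5a + anti-Ptk7.

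**Figure D4:**
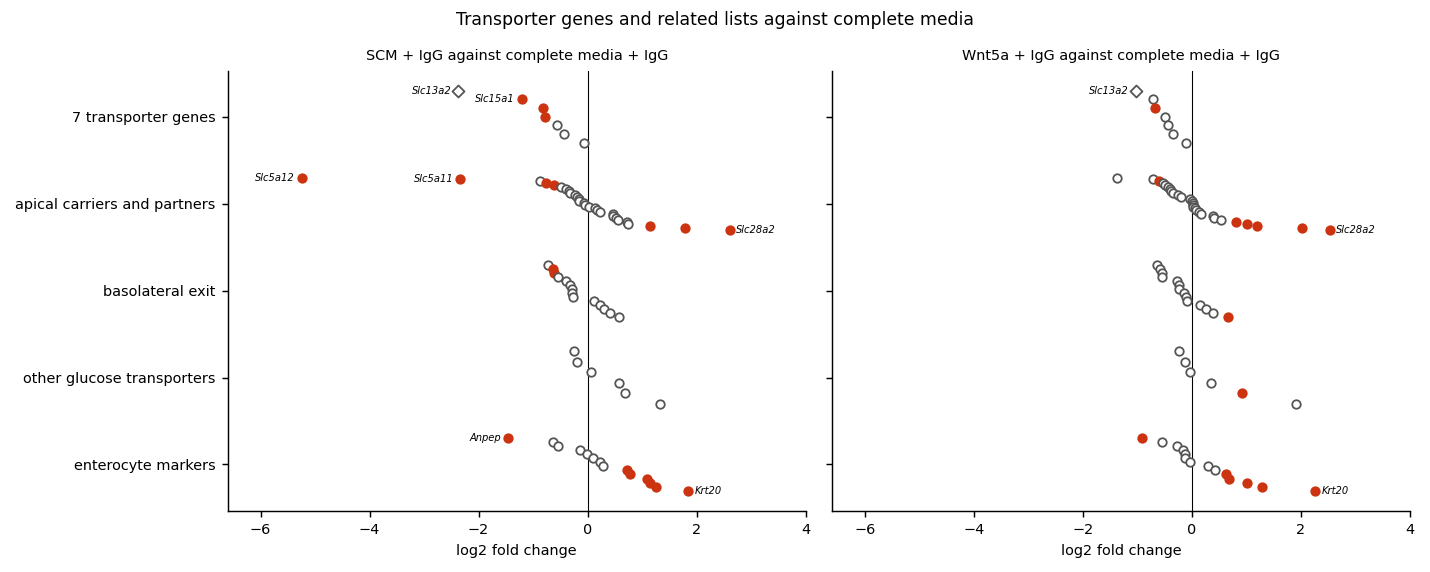
Fitted log2 fold changes (horizontal axes) of the 7 transporter genes and 4 lists in SCM + IgG and in Wnt5a + IgG against complete media + IgG, with each point a gene, filled red where called and a diamond for Slc13a2. The apical list has genes called on both sides of 0 (3 higher and 4 lower in SCM + IgG), and the value of Slc5a12 rests on 0 to 4 counts in the SCM + IgG libraries.

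On the basolateral side, all 14 listed genes of nutrient exit were tested and 2 were called lower in SCM + IgG, the nucleoside carrier Slc29a1 (263 ± 18.5 to 168 ± 12.8 CPM, −0.64, adjusted p = 0.000107) and the amino acid exchanger Slc7a8 (−0.61, adjusted p = 0.0458). The median of the 14 was −0.29 against 0.01 for all genes, of which 1.12% were called lower. In Wnt5a + IgG, where 8.29% of all genes were called higher, Abcc3, an organic anion exporter, was called higher (0.66, adjusted p = 0.00243) and none was called lower. Of 6 other facilitative glucose transporters tested, 0 were called in SCM + IgG by edgeR, with 1 at an unadjusted p under 0.05, and 1 in Wnt5a + IgG, Slc2a1 (GLUT1), which was higher by 0.92 (adjusted p = 0.00821). The relatives of Slc13a2 were barely expressed. Slc13a3 and Slc13a5 had 0 counts in all libraries, Slc13a4 had 7 in total, and the sulfate carrier Slc13a1 had a mean of 1.11 CPM in complete media + IgG and 1.06 in SCM + IgG.

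The patterns most like that of Slc13a2 over the 36 libraries, by Pearson's r of log2 CPM among 12456 genes, were those of Anpep (0.831), Lpar5 (0.813), Kyat1 (0.798), Sphk2 (0.786) and Cyp4b1 (0.782). Anpep had means of 123 ± 12.6 CPM in complete media + IgG, 69.7 in QCM + IgG, 65.1 in Wnt5a + IgG, 46.2 in Wnt5a + anti-Ptk7, 45.1 in SCM + anti-Ptk7 and 44.5 ± 14.3 in SCM + IgG. These correlations include the condition means on which Slc13a2 was chosen, and 1 of the 5 genes was among the top 5 without the SCM + IgG libraries. Of the other transporter genes Slc6a19 was the most like it, at r = 0.64 and rank 121, followed by Slc5a1 (0.58), Slc2a5 (0.57), Slc15a1 (0.45), Slc7a9 (0.30) and Slc2a2 (0.18). For deviations from the condition means, which leave the conditions out, the highest were 0610040J01Rik (0.751), Esrra (0.744), Frmd4a (0.743), Gamt (0.742) and Hexa (0.738). On that measure Slc13a2 was nearest to Slc5a1 among the transporter genes (0.68). The sugar carriers moved together by both measures, Slc5a1 with Slc2a5 at 0.75 over libraries and 0.73 over deviations and with Slc2a2 at 0.71 and 0.74, whereas Slc15a1 and Slc7a9 had −0.01 and −0.03. All these values are descriptions over the same 36 libraries.

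Slc5a1 also followed the replicate number. Number 1 was the lowest in 6 of 6 conditions, number 5 the second lowest in 6 and number 3 the highest in 6. For example, it ran from 395 CPM in number 1 to 662 CPM in number 3 in complete media + IgG, and from 238 to 479 CPM in SCM + IgG. The number held 90.0% of its variance within conditions, more than in 99.8% of the genes tested, which had a median of 20.8%. The share was 65.4% for Slc2a5, 57.3% for Slc2a2, 51.2% for Slc13a2, 41.9% for Slc7a9, 37.1% for Slc6a19 and 7.02% for Slc15a1. For Slc13a2 the highest library of each condition was number 2 or number 3, and number 1 or 5 was the lowest in 5 of 6. The labels do not say what a number stands for, and its part in these levels cannot be told apart from that of any factor that libraries of the same number shared.

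**Figure D5:**
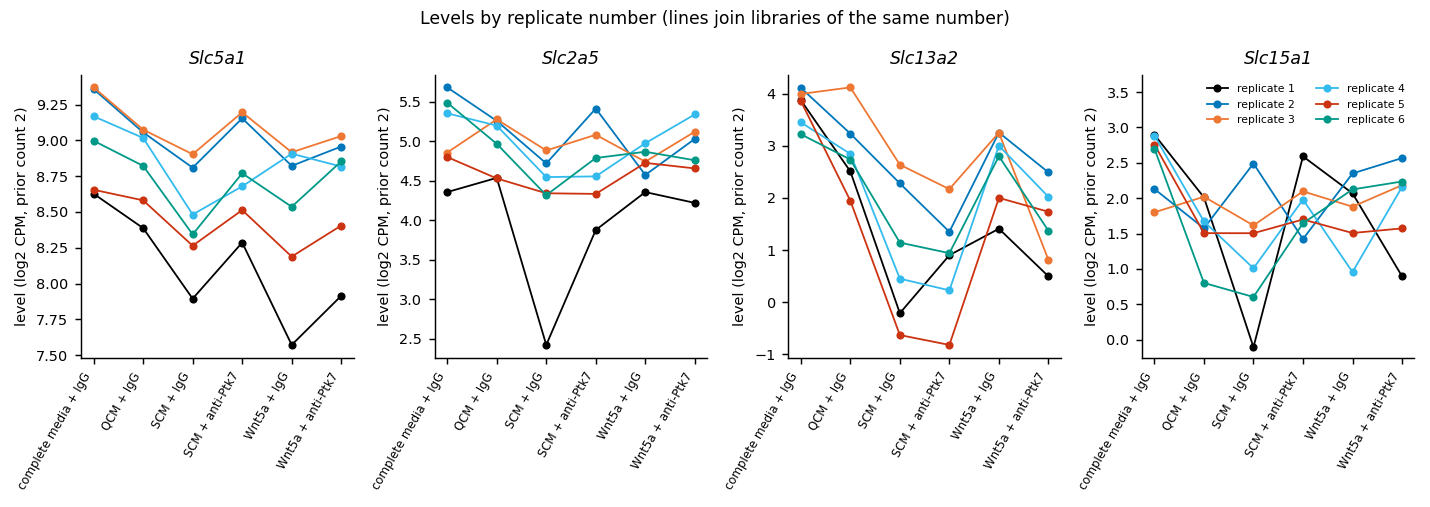
Levels of Slc5a1, Slc2a5, Slc13a2 and Slc15a1 (vertical axes, log2 CPM with a prior count of 2) in the 6 conditions, with each point a library and a line for each replicate number. The lines of Slc5a1 keep replicate 1 lowest and replicate 3 highest in all 6 conditions, and those of Slc15a1 cross.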

How the data were processed

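RNA of 36 organoid cultures, 6 of each of 6 conditions, was amplified with the Smart-Seq V4 kit from 2 ng of total RNA. The authors aligned reads with HTSeqGenie and GSNAP to mm10 and deposited whole-number counts per gene, without normalization. Their methods describe counts of reads within coding sequences, although genes without a coding sequence also hold counts. The gene annotation and the use of strand in counting are not given in the sources used here. From these counts, genes were filtered with filterByExpr (15497 of 52636 kept), scaled by TMM and tested with glmQLFit and glmQLFTest of edgeR 4.0.16 (R 4.3.3) in one model of 6 condition means. The Benjamini-Hochberg adjustment ran over the 15497 genes, and a call needed an adjusted p below 0.05 together with a difference above 1.5-fold. Levels are TMM-scaled CPM and log2 CPM has a prior count of 2. Symbols, positions and coding lengths came from GENCODE M21. The test was checked on simulated data. Alternatives were voom with limma 3.58.1 on quantile-normalized values (the authors' method), DESeq2 1.42.0, DESeq2 size factors, no filter, no fold-change cutoff, only the groups compared, a block by replicate number and each library left out. Depth was 9581589 to 21029769 counts. The members and lists were chosen with earlier results of these data known. List genes were named for the 5 smallest adjusted p in a comparison, with Slc3a1 and Cltrn always, and 1 gene of the apical list is not reported here. Slc5a11, the marker genes, and the basolateral and glucose genes named for single calls were picked after their values were seen.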

Additional observations from a re-analysis of the deposited data

Results flagged for a closer look

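In 42 groups of 6 libraries (7 genes in 6 conditions), 3 held a library whose gap to the nearest of the others, as a share of the range of the group (Dixon's ratio), was over its 95% critical value for 6 libraries. Chance flags about 1 in 20 groups. SCM + IgG replicate 1 stood apart for both facilitative hexose carriers, at 11.3 CPM for Slc2a2 against 29.4 CPM in the next library (ratio 0.811) and at 5.21 CPM for Slc2a5 against 19.8 CPM in the next (ratio 0.77). Complete media + IgG replicate 6 stood apart for Slc6a19, at 19.4 CPM against 34.4 CPM in the next library (ratio 0.658).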

How the results depend on the processing

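Of 1547 fold changes recomputed under the alternatives, 1463 kept their direction and their side of the threshold, 66 turned, 7 gained and 11 lost a call, and none over 0.41 in size turned. The count called in SCM + IgG against complete media + IgG was 2 with no filter (Slc2a5 at an adjusted p of 0.0678) and with only the groups compared (0.111), and 2 to 4 with a library left out. In Wnt5a + IgG against complete media + IgG it was 2 with voom (Slc15a1 at −0.90, adjusted p = 0.024, beside Slc6a19) and 0 to 2 with a library left out. Slc13a2 in SCM + anti-Ptk7 against QCM + IgG was called under all alternatives run, at −1.69 to −2.45 and adjusted p of 0.00021 to 0.0279.

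With the replicate number as a block, SCM + IgG against QCM + IgG gave 1 call in place of 0 (Slc2a5, −0.69, adjusted p = 0.0121) and no other count of calls moved. The block lowered the adjusted p of Slc5a1 to 7.66e-07 in SCM + IgG (−0.58) and 2.46e-06 in Wnt5a + IgG (−0.53) against complete media + IgG, with fold changes under 1.5. Slc5a1 in SCM + anti-Ptk7 against SCM + IgG (0.32, 0.00882), in SCM + IgG (−0.37, 0.00142) and Wnt5a + IgG (−0.32, 0.00174) against QCM + IgG, and Slc2a2 in SCM + IgG against complete media + IgG (−0.48, 0.0396) and in SCM + anti-Ptk7 against SCM + IgG (0.53, 0.0431) also passed the adjusted p but not the fold change. Slc13a2 had −2.08 (0.00021) in SCM + anti-Ptk7 against QCM + IgG and −1.05 (0.0771) in Wnt5a + anti-Ptk7 against Wnt5a + IgG. Same-numbered libraries had a mean correlation of deviations of 0.092, against −0.018 for different numbers, 34 of 90 pairs were over 0.1, and 16 of 36 libraries were most like their own number. The labels do not say what a number stands for, and the numbers were not taken as pairs in the main tests. Any factor that same-numbered libraries shared therefore stays in the error of the main fit and of the permutation tests.

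Signs turned only for small differences. With voom they turned for Slc6a19 in anti-Ptk7 against IgG in SCM (−0.02), Slc15a1 (−0.04) and Slc2a2 (0) in Wnt5a + anti-Ptk7 against SCM + anti-Ptk7, and Slc7a9 in the difference of antibody effects (0.02, and 0.01 with the block), and with no filter for Slc2a2 in Wnt5a + anti-Ptk7 against SCM + anti-Ptk7 (−0.01). With a library left out they turned in SCM + anti-Ptk7 against SCM + IgG for Slc13a2 (−0.82 to 0.07) and Slc6a19 (−0.09 to 0.21); in Wnt5a + anti-Ptk7 against Wnt5a + IgG for Slc6a19 (−0.13 to 0.05); in Wnt5a + IgG against QCM + IgG for Slc13a2 (−0.45 to 0.06) and Slc2a2 (−0.16 to 0.13); in SCM + IgG against QCM + IgG for Slc2a2 (−0.19 to 0.06); and in SCM + anti-Ptk7 against QCM + IgG for Slc5a1 (−0.12 to 0.04). They also turned in Wnt5a + IgG against SCM + IgG for Slc5a1 (−0.01 to 0.22), Slc2a2 (−0.07 to 0.23) and Slc7a9 (−0.09 to 0.02), in Wnt5a + anti-Ptk7 against SCM + anti-Ptk7 for Slc5a1 (−0.18 to 0.02), Slc15a1 (−0.07 to 0.25), Slc2a2 (−0.07 to 0.12), Slc7a9 (−0.14 to 0.03) and Slc6a19 (−0.07 to 0.17), and in the difference of antibody effects for Slc2a2 (−0.21 to 0.09), Slc7a9 (−0.10 to 0.06) and Slc6a19 (−0.26 to 0.04). Of the 5 genes most like Slc13a2, 3 over libraries and 2 over deviations stayed with Spearman's rho, and 1 and 1 without SCM + IgG. The causes of these changes were not tested. At 5 to 264 counts per library, Slc13a2 is limited by depth more than the sugar carriers are.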
